A study of Homo sapiens with 16 samples.

Results

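OCI-AML3 cells treated with all-trans retinoic acid (ATRA) alone were compared with OCI-AML3 cells treated with ATRA together with GSK-LSD1, an inhibitor of the histone demethylase LSD1, and MB3, an inhibitor of the histone acetyltransferase GCN5. OCI-AML3 is an established human acute myeloid leukemia (AML) cell line, and the labels give peripheral blood as its source. ATRA was used at 0.1 µM, GSK-LSD1 at 0.1 µM and MB3 at 100 µM, and RNA was taken after 3 h. Each group held 3 libraries, so that the comparison used 6 of the 16 RNA-seq libraries of the series. The other 10 were 4 libraries from untreated cells, 3 from cells given 0.1 µM Am80, a synthetic agonist of the retinoic acid receptor RARA, and 3 from cells given Am80 with both inhibitors at the same doses. Both inhibitors were always given together and always beside a retinoid. The part of each inhibitor, and a response to the inhibitors without a retinoid, cannot be told apart here. All groups are 1 cell line, and no source used here says that the libraries of a group came from separate cultures, so p-values measure the spread between these libraries. Of 62700 genes in the table, 14737 averaged 10 normalized counts or more over the 6 libraries and were tested.

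ATRA binds retinoic acid receptors, which sit with retinoid X receptors on response elements in DNA and switch from holding corepressors to recruiting coactivators when the ligand is bound. In myeloid cells this program drives differentiation, and it also turns on the enzymes that clear retinoic acid. LSD1, encoded by KDM1A, removes methyl groups from histone H3 within the CoREST complex, where SNAG-domain factors such as GFI1 dock. GCN5, encoded by KAT2A, acetylates histones within the SAGA and ATAC complexes.

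The deposited values were reads per gene divided by a DESeq2 size factor for each library, called normalized counts here. Levels were compared as log2(normalized count + 1) with limma in a fit of all 16 libraries, and a gene was called when its Benjamini-Hochberg adjusted p was under 0.05 and its fitted fold was at least 1.5. A log2 difference is the value with both inhibitors minus the value with ATRA alone, and its error is the standard error of the fit. The log2(normalized count + 1) scale understates the change of low genes.

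Total reads were 17593341, 19172560 and 23910601 with ATRA and 18884805, 17375513 and 16561309 with ATRA and the inhibitors, within a range of 11963898 to 33789718 over the series. The 10 markers of the AML line were all expressed, and none was called. Their summed level was 44203 to 48519 normalized counts with ATRA and 51959 to 52705 with the inhibitors, so that the groups did not overlap. After scaling to total reads or quantile normalization 1 of the 10 was called lower. Of 26 markers of other cell types, 4 passed the filter, none was called, and 12, among them CD3D, MS4A1, HBB, PF4 and KRT19, had no read in any of the 6 libraries. Their summed level was 152 to 180.1 with ATRA and 146 to 185 with the inhibitors, so that the groups overlapped.

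Gene levels tilted with GC content in a way that separated both groups. The slope of a library's log2 levels, relative to each gene's mean over the 16 libraries, on the GC content of the longest transcript was 0.0552, 0.151 and 0.0857 per 10 percentage points with ATRA and -0.175, -0.214 and -0.189 with the inhibitors. The ATRA libraries lay within the 0.0479 to 0.186 of untreated cells, and the 3 libraries with the inhibitors lay below every other library of the series. Mitochondrial genes took 6.02% to 6.39% of the reads with ATRA and 7.67% to 9.21% with the inhibitors, again without overlap. The part of the tilt and of the mitochondrial share in the results was not tested. The lists below are therefore also given from a fit in which a spline trend on GC content was removed from every library, an alternative chosen after seeing the data that covered 14372 genes.

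**Figure D1:**
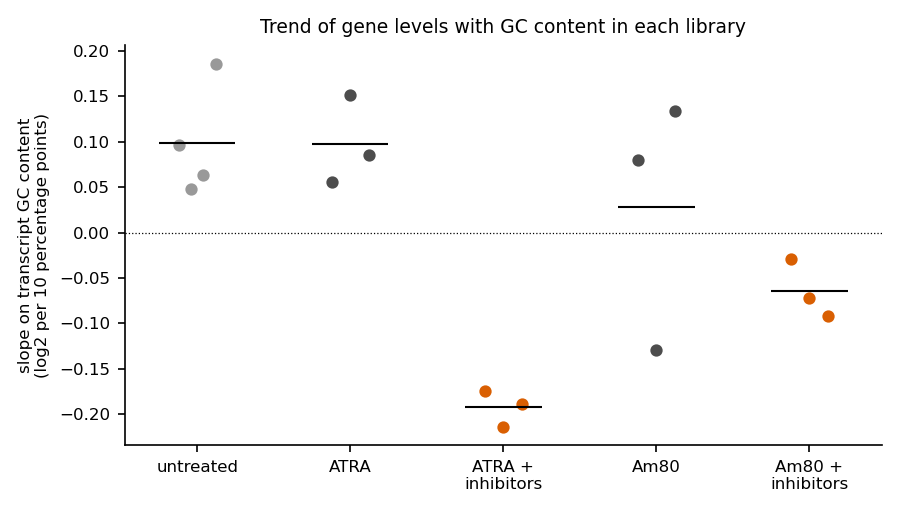
Slope of gene levels on transcript GC content (vertical axis, log2 units per 10 percentage points of GC) in each of the 16 libraries (points), by treatment (horizontal axis). Horizontal bars are group means. The 3 libraries of ATRA with the inhibitors lie between -0.214 and -0.175, below the 3 ATRA libraries at 0.0552 to 0.151. Am80 replicate 2 lies at -0.129, below the other 2 Am80 libraries.

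The promoters of 8 raised genes that hold a searched motif are shown, since oxidative stress, heat shock and cytokine genes have well known response elements and most or many of their list members were called higher. The motifs were the antioxidant response element core TGACNNNGC, bound by NRF2 with small MAF proteins, the heat shock element core TTCNNGAA, bound by HSF1, and the AP-1 site TGANTCA, bound by FOS and JUN proteins. Both strands were searched. No motif of NF-kappaB, a driver of cytokine promoters, was searched for, so the capitals do not show whether one is present. A stretch that reads TGACTCAGC holds both an antioxidant response element core and an AP-1 site. Each sequence is the 150 bases before the RefSeq start of the gene on GRCh38.p14, written 5′ to 3′ on the gene's strand, with every match of the 3 motifs in capitals. The first base of the match lies 97 bases before the start in OSGIN1, 34 in GCLM, 99 in TXNRD1, 137 in ME1, 74 in HSPA6, 55 in HSPA8 and 137 in CXCL8, and the 3 matches of CHORDC1 begin 55, 45 and 23 bases before it. HSPA6 holds a second stretch in capitals that begins 141 bases before its start. OSGIN1 and CXCL8 hold an AP-1 site, GCLM and TXNRD1 an antioxidant response element core, ME1 both in 1 overlapping match, and HSPA6, CHORDC1 and HSPA8 the heat shock element core. The second stretch of HSPA6 is an antioxidant response element core and an AP-1 site that overlap.
OSGIN1 (chr16:83953090-83953239, plus strand): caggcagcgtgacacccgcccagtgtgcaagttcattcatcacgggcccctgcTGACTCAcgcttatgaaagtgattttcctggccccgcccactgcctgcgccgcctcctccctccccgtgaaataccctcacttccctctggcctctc
GCLM (chr1:93909431-93909580, minus strand): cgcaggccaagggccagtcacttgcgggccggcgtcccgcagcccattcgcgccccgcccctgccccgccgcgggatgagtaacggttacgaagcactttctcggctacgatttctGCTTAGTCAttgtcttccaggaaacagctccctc
TXNRD1 (chr12:104215629-104215778, plus strand): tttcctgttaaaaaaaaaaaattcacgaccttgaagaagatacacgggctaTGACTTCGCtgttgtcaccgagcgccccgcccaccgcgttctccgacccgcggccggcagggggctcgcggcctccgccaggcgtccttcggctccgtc
ME1 (chr6:83431052-83431201, minus strand): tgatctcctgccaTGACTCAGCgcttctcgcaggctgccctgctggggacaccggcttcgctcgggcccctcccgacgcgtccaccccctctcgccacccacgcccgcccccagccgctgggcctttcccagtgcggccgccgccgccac
HSPA6 (chr1:161524390-161524539, plus strand): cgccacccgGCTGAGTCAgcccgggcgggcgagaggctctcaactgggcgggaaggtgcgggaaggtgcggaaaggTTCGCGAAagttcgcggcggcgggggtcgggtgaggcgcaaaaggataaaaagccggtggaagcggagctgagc
CHORDC1 (chr11:90223050-90223199, minus strand): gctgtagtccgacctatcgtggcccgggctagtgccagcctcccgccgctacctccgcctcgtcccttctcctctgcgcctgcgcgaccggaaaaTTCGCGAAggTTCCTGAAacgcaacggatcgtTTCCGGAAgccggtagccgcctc
HSPA8 (chr11:123062137-123062286, minus strand): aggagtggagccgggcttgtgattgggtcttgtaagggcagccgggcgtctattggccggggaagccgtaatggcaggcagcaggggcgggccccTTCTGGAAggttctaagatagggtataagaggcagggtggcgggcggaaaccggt
CXCL8 (chr4:73740419-73740568, plus strand): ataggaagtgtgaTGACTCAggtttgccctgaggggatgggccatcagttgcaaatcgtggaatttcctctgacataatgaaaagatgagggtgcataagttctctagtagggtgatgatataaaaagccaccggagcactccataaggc

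Both inhibitors beside ATRA called 1202 genes higher and 1663 lower. That is 8.16% and 11.3% of the genes tested, and 19.4% for both directions. The median log2 difference was -0.02 over all genes, 0.81 over the genes called higher and -0.84 over those called lower. A fold of at least 2 was reached by 348 genes higher and 516 lower, and of at least 4 by 30 higher and 20 lower. The rises reached further: HMOX1, OSGIN1 and LUCAT1 rose more than 8-fold, and no gene fell by as much. The 3 libraries of each group did not overlap for 2819 of the 2865 called genes, against 62.8% of all genes tested.

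With the GC trend removed, 830 genes were called higher and 1054 lower. Of the genes called higher 632, or 52.6%, were called in this fit too, and of those called lower 809, or 48.6%. The median transcript GC was 42.0% for the genes called higher, 58.0% for those called lower and 47.6% for those not called. Scaling the recovered reads to total reads moved the median of all genes to -0.16 and called 681 higher and 2544 lower, 21.1% higher against 42.0% in the fit reported. Differences are therefore best read beside that shift of all genes.

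**Figure D2:**
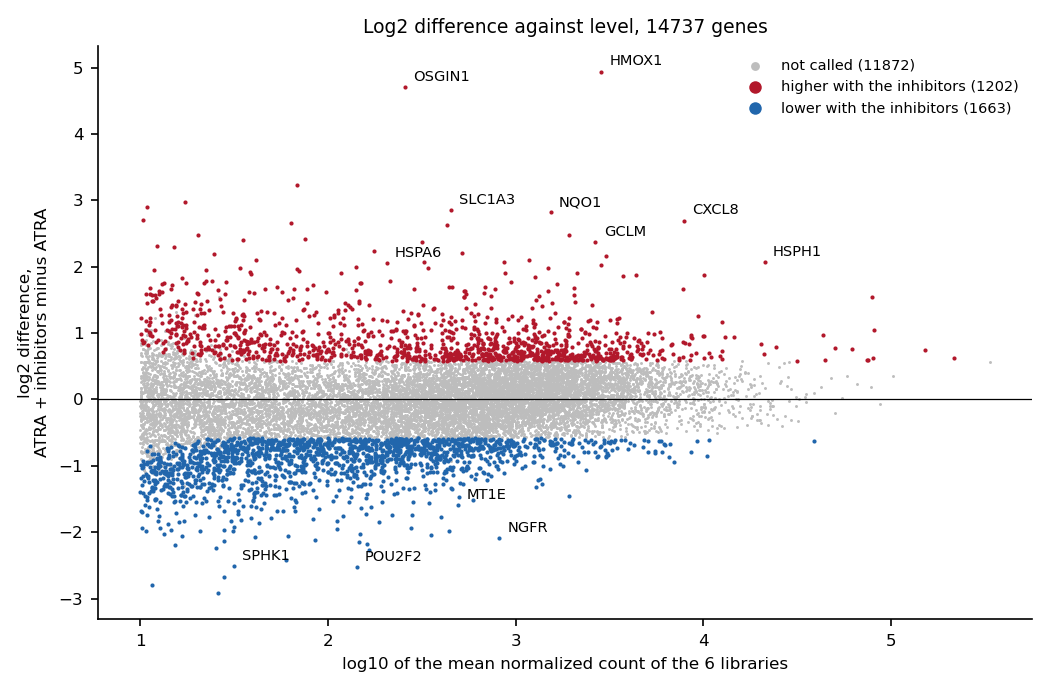
Log2 difference of ATRA with both inhibitors minus ATRA (vertical axis) against log10 of the mean normalized count of the 6 libraries (horizontal axis) for 14737 genes. Red points are the 1202 genes called higher, blue points the 1663 called lower and grey points those not called. HMOX1 and OSGIN1 lie at 4.94 and 4.70, and POU2F2 at -2.52.

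Genes of the oxidative stress program were the steepest rises. NRF2 is a transcription factor that KEAP1 marks for degradation until oxidants or electrophiles modify KEAP1, after which NRF2 turns on detoxifying enzymes, glutathione synthesis and iron handling. Of 35 NRF2 targets in the list 34 were tested, 20 were called higher and 1 lower, with a median log2 difference of 0.73. With the GC trend removed the counts were 21 and 0, and beside Am80, in other libraries, 19 and 0. Settings that left out 1 library gave 18 to 21 higher.

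HMOX1, heme oxygenase, which breaks heme down, had 167, 195 and 161 normalized counts with ATRA and 4011, 7287 and 5284 with the inhibitors. Every library with the inhibitors lay far above every ATRA library, a log2 difference of 4.94 ± 0.17 (adjusted p = 3.64e-14). OSGIN1, an oxidative stress induced growth inhibitor gene, stood at 16.4, 17.3 and 20.2 against 404, 601 and 485, a log2 difference of 4.70 ± 0.23 (adjusted p = 3.66e-12). NQO1, a quinone reductase, had 401, 348 and 383 normalized counts with ATRA and 2387, 3224 and 2469.9 with the inhibitors, and its groups did not overlap (2.82 ± 0.11, adjusted p = 2.07e-13).

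Genes of glutathione supply were among the rises. SLC7A11, the cystine transporter, went from 282, 271 and 253 to 740, 932 and 712 normalized counts, a log2 difference of 1.55 ± 0.13 (adjusted p = 1.23e-08). GCLM, the modifier subunit of the enzyme that starts glutathione synthesis, went from 911, 802 and 876 to 4339.6, 4796 and 4238 (2.37 ± 0.076, adjusted p = 2.31e-14). Neither gene had overlapping groups. GCLC, the catalytic subunit, was also above in every library, at 404 to 451 against 285 to 327, and its log2 difference of 0.52 fell short of the fold limit.

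Single genes of thioredoxin reduction and NADPH supply rose too. TXNRD1, thioredoxin reductase, had 3381 to 3889 normalized counts with ATRA and 10875 to 13511 with the inhibitors (1.66 ± 0.084, adjusted p = 7.36e-12). ME1, malic enzyme, had 389.9 to 429 and 1055 to 1091, and PGD of the pentose phosphate pathway 2233 to 2289 and 4341 to 4854, with log2 differences of 1.37 and 1.01. The aldo-keto reductases AKR1C1, AKR1C2 and AKR1C3 rose by 1.78, 1.67 and 1.02 on the log2 scale, although reads of these near-identical genes may be split between them. The ferritin genes FTL and FTH1, which store iron, rose by 0.97 and 0.77. The counting of reads that match their processed copies is not given in the sources used here. TXN and SRXN1 were not called, at 0.10 and 0.15, and the fall was ABCC1, a drug and glutathione conjugate exporter, at -0.68 (-0.51 with the GC trend removed, which is under the limit on the fold).

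Of the 20 raised NRF2 targets 16 had a promoter window of 300 bases in the RefSeq table, and 5 of these, 31.2%, held an antioxidant response element core. The share was 15.3% over the 9823 protein-coding genes tested with a window and 16.5% over those called higher. Raised heat shock genes held the same core in 6 of 19 windows, 31.6%. An AP-1 site was held by 3 of the 16, or 18.8%, against 4.39% over all, 7.77% over the genes called higher and 15.8% over the raised heat shock genes. Of the other motifs searched, the E-box CACGTG was in 10.3% of all windows and 8.16% of those of genes called higher, and the C/EBP-ATF core TGATGNAA in 1.78% and 2.46%. A match is a description of these letters, not a site of binding. Genes called lower had a window in 76.6% of cases, too few for such a share.

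Most heat shock proteins and co-chaperones rose. HSF1 turns on these genes when unfolded proteins occupy the HSP70 and HSP90 chaperones. Of 32 list members 29 were tested, 20 were called higher and 1 lower, with a median log2 difference of 0.93. The counts were 20 and 0 with the GC trend removed, 21 and 0 beside Am80, and 18 to 20 higher over every setting with the same thresholds. HSPA1A and HSPA1B, near-identical copies that can lose reads in counting, were under the filter with means of 0.362 and 0.12 normalized counts.

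HSPA6, a stress-induced HSP70 gene whose reads may be shared with its near-identical neighbour HSPA7, had 70.4, 82.8 and 79.2 normalized counts with ATRA and 273, 448 and 278 with the inhibitors, a log2 difference of 2.05 ± 0.18 (adjusted p = 3.01e-08). HSPH1, which exchanges nucleotide on HSP70, went from 8649.8, 7333 and 8370.2 to 31101, 40106 and 31447 (2.07 ± 0.086, adjusted p = 4.49e-13). Both were without overlap, and the second library with the inhibitors was the highest for each, as it was for HMOX1. DNAJB1, an HSP40 that hands clients to HSP70, went from 4179, 4123 and 4392 to 12503, 20236 and 14924 (1.88 ± 0.13, adjusted p = 8.17e-10). BAG3, a co-chaperone that couples HSP70 to autophagy, had 537 to 636 and 2108 to 2717, and CHORDC1, an HSP90 co-chaperone, 1534 to 1640 and 5406 to 6569.9, with log2 differences of 1.98 and 1.86.

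HSP90 and HSC70 genes of the cytosol rose as well. HSP90AA1 had a mean of 40138 ± 3530.3 (SD, n = 3) normalized counts with ATRA and 118010 ± 16280 (SD, n = 3) with the inhibitors, HSPA8 52681 ± 2149.8 and 109808 ± 13019.6, and HSP90AB1 36987 ± 569.7 and 63145 ± 4844. Their log2 differences were 1.55, 1.05 and 0.77. The mitochondrial chaperonin pair HSPD1 and HSPE1 rose by 0.83 and 1.01, and HSPB1, a small heat shock protein, by 1.06. HSF1 itself was at 0.021 (adjusted p = 0.866), and the cytosolic chaperonin subunit CCT2 at 0.21 (adjusted p = 0.0703). The fall was DNAJB2, at -0.61 (-0.32 with the GC trend removed, under the limit on the fold). The heat shock element core was in 5 of the 19 raised members with a window, 26.3%, against 6.2% of all protein-coding genes tested with one and 8.29% of those called higher.

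**Figure D3:**
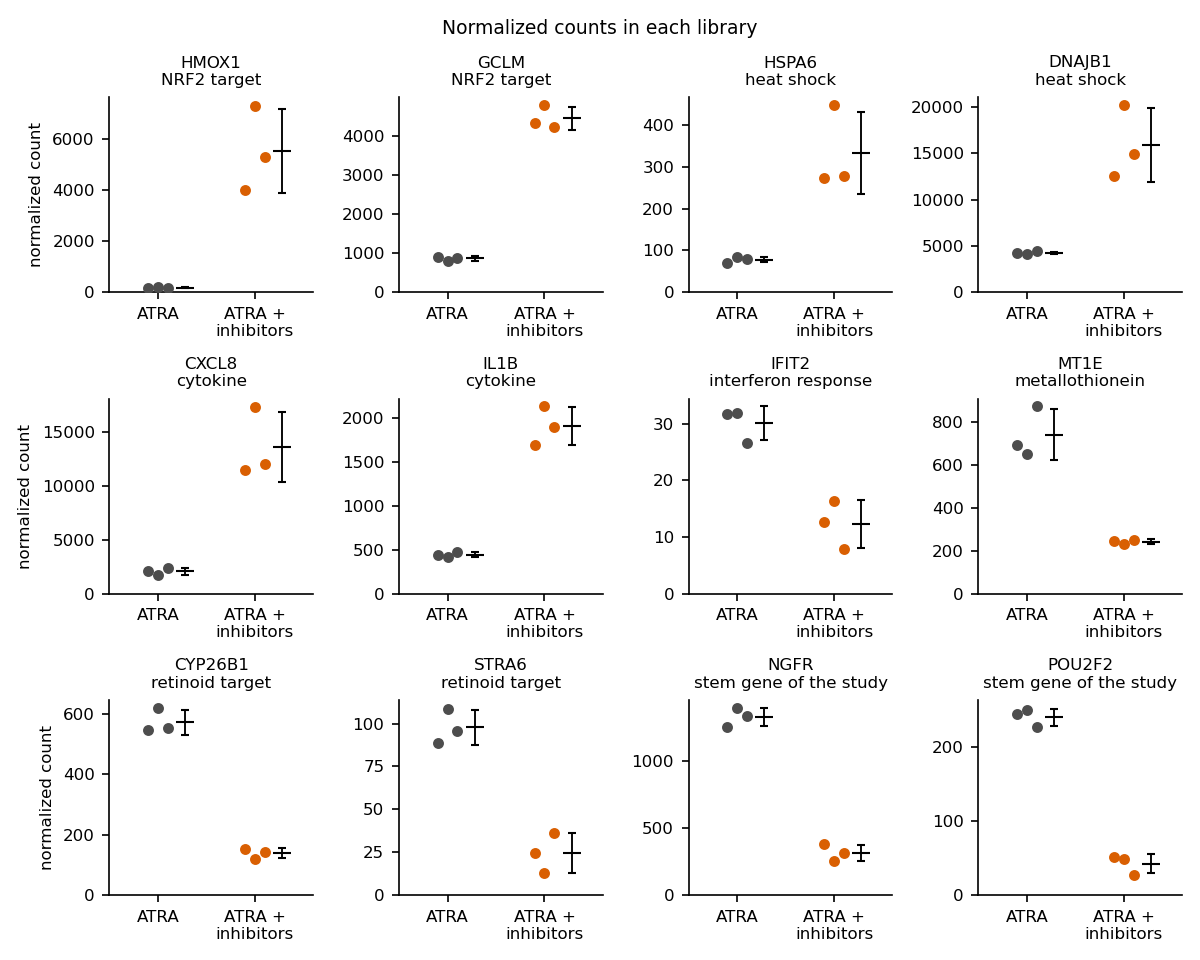
Normalized counts (vertical axes, each starting at 0 on its own linear scale) of 12 genes in the 3 ATRA libraries (grey) and the 3 libraries of ATRA with both inhibitors (orange). Black bars are the mean ± SD. No gene shown has overlapping groups: HMOX1, GCLM, HSPA6, DNAJB1, CXCL8 and IL1B are higher with the inhibitors, and IFIT2, MT1E, CYP26B1, STRA6, NGFR and POU2F2 are lower.

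Other protein quality control genes moved in smaller numbers. Of 22 endoplasmic reticulum chaperone and unfolded protein response genes 7 were called higher and 1 lower (median 0.48), 4 and 0 with the GC trend removed, 3 higher after scaling to total reads or quantile normalization, and 4 without ATRA replicate 2 or without combination replicate 2. DNAJB9, which feeds back on the stress sensor IRE1, had 296, 250.2 and 279 normalized counts with ATRA and 534, 643 and 529 with the inhibitors (1.04 ± 0.11, adjusted p = 1.55e-07). XBP1, the factor IRE1 activates by splicing, rose by 0.84, and HSPA5, the luminal HSP70, by 0.59. SDF2L1, a partner of HSPA5, fell to -0.77, and to -0.28 without a call once the GC trend was removed.

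Of 30 ATF4 targets, which are turned on by the integrated stress response, 3 were called higher and 0 lower with a median of 0.16. These were SLC7A11, DDIT3 and PPP1R15A, and the counts were 6 and 0 with the GC trend removed. DDIT3, the stress factor CHOP, went from 307, 292 and 297 to 511, 665 and 564 normalized counts (0.95 ± 0.12, adjusted p = 1.60e-06). PPP1R15A, a regulatory subunit of the phosphatase that acts on eIF2-alpha and so ends that response, went from 466, 448 and 439 to 712, 1059.7 and 791 (0.90 ± 0.13, adjusted p = 1.08e-05). Scaling to total reads gave 3 and 2, and leaving out combination replicate 1 gave 5 higher. Others of the same list were not called: ASNS was at 0.084 and CHAC1 at -0.0028. Beside Am80, 10 of the 30 were called higher.

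Of 33 proteasome subunits 1 was called, PSMD11 at 0.59, and with the GC trend removed none higher and 2 lower. Of 28 autophagy and lysosome genes 7 were called higher and 0 lower, and 7 and 0 with the GC trend removed, while the median of the list was 0.05 and was below 0, at -0.10, after scaling to total reads. The raised members sit mostly at the autophagosome. MAP1LC3B, the LC3 protein that coats it, went from 1068, 1049.8 and 1183 to 2695, 3431 and 3053 normalized counts (1.47 ± 0.087, adjusted p = 8.89e-11). GABARAPL1, of the same family, had 193 to 217 with ATRA and 504 to 579 with the inhibitors, and SQSTM1, the cargo receptor p62, 1609 to 1684 and 3019 to 3626, with log2 differences of 1.38 and 0.98. MITF, a factor of the lysosome program better known from pigment cells, rose from 35.7, 27.6 and 30.3 to 110.3, 98.9 and 92.1 (1.66 ± 0.15, adjusted p = 2.71e-08). The lysosomal enzymes and pump subunits of the list were not called.

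Of the NF-kappaB genes and inflammatory cytokines, 11 were called higher and 14 were not. NF-kappaB dimers, often with AP-1, drive cytokine promoters, and monocytic cells make the encoded proteins on activation. Of 29 list members 25 were tested and 0 were called lower, with a median of 0.35. The counts were 13 and 0 with the GC trend removed, and 14 and 1 beside Am80. Leaving out any 1 of the 6 libraries kept the number at 11.

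CXCL8, the neutrophil attractant IL-8, had 2139, 1735 and 2389 normalized counts with ATRA and 11501, 17346 and 12076 with the inhibitors, a log2 difference of 2.69 ± 0.14 (adjusted p = 1.44e-11). IL1B, interleukin 1 beta, had 439.6, 415 and 471 and 1695, 2136 and 1904 (2.11 ± 0.10, adjusted p = 2.85e-12). The libraries with the inhibitors lay above all ATRA libraries for both genes. TNF went from 59.8, 79.4 and 65.5 to 219, 247 and 229.6 normalized counts (1.76 ± 0.14, adjusted p = 4.59e-09). The chemokines CXCL1, CXCL3, CCL2 and CCL20 rose by 1.29, 1.67, 1.26 and 1.51. CXCL3 was low, at 5.78 to 6.90 normalized counts with ATRA and 17.6, 28.3 and 22.7 with the inhibitors. PTGS2, the inducible cyclooxygenase, rose by 1.46, with the second library at 263 against 154 and 134 in the other two.

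The feedback inhibitors and subunits of NF-kappaB itself were mostly not called. NFKBIA, the classic inhibitor and a rapid target, had 643, 589 and 663 normalized counts with ATRA and 660, 649.9 and 584 with the inhibitors, and the groups overlapped (95% interval of the difference -0.20 to 0.20). NFKB1 was at -0.028 and SOD2 at 0.084. NFKBIZ and REL were called, at 1.22 and 0.72. An AP-1 site, as in the printed CXCL8 promoter, was in 1 of the 10 raised members with a window. NF-kappaB sites were not searched for.

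Immediate early and ERK feedback genes, which respond within minutes to growth factor signals, went in both directions. Of 33 tested 10 were called higher and 3 lower, with a median of 0.25, and the counts were the same with the GC trend removed and 7 and 4 after scaling to total reads. EGR1, a zinc finger factor, had 292, 268 and 243 normalized counts with ATRA and 749, 944 and 677 with the inhibitors (1.55 ± 0.16, adjusted p = 1.86e-07). JUN, an AP-1 subunit, had 194, 205 and 204 and 456, 636 and 477 (1.36 ± 0.14, adjusted p = 3.08e-07). ATRA alone had lowered JUN from 409, 446, 480 and 571 in untreated cells. With the inhibitors its difference from untreated cells was 0.13 (limma adjusted p = 0.424). SPRY4, which restrains ERK signalling, had 679.7, 740.1 and 735 and 2015, 2414 and 2294 (1.64 ± 0.075, adjusted p = 1.92e-12). All 3 rose without overlap. FOS was not called, at 148 to 174 against 142 to 163 (log2 difference -0.10, adjusted p = 0.484). Of the ERK phosphatases, DUSP6 fell by 0.83 and DUSP2 by 1.65, and DUSP5 rose by 0.60. The third fall was NR4A2, an orphan nuclear receptor, at -1.22.

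About as many interferon response genes were called lower as were not called. Cells turn them on when type I interferons bind their receptor. Of 32 members 29 were tested, 0 were called higher and 14 lower, with a median of -0.65, and 7 of the 29 had a fitted value above 0. With the GC trend removed 1 was called higher and 14 lower, and beside Am80 2 and 14. Leaving out 1 library gave 11 to 16 lower, 9 were lower among the members with a mean of at least 50, and the median was below 0 in every setting.

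IFIT2, which binds viral RNA, had 31.8, 31.9 and 26.6 normalized counts with ATRA and 12.7, 16.3 and 7.96 with the inhibitors (-1.27 ± 0.32, adjusted p = 0.00295). MX1, an antiviral GTPase, had 192, 185 and 174 and 105, 74.99 and 90.9 (-1.03 ± 0.13, adjusted p = 2.16e-06). RSAD2, the antiviral enzyme viperin, had 155, 121 and 118 and 67.4, 59.8 and 72.7 (-0.96 ± 0.15, adjusted p = 2.74e-05). None of these overlapped. The antigen processing genes PSMB9, an immunoproteasome subunit, and TAP1, a peptide transporter, fell by 1.13 and 0.88, and the double-stranded RNA sensor IFIH1 by 0.89. STAT2, a carrier of the interferon signal, was not called, at 0.08 (adjusted p = 0.464). IRF1, an interferon response factor that ATRA alone raised, had 445 to 494 normalized counts in untreated cells, 2155, 2161 and 2151 with ATRA and 1480, 1441 and 1521 with the inhibitors, a difference of -0.54 ± 0.067 (adjusted p = 2.11e-06) that was under the fold limit.

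Metallothionein genes fell together. They encode small proteins that bind zinc and copper, and the zinc sensor MTF1 drives them. Of 9 genes tested in the list of 11, the 6 metallothioneins were all called lower. MT1E had 694, 652 and 877 normalized counts with ATRA and 247, 230.4 and 251 with the inhibitors (-1.59 ± 0.16, adjusted p = 1.71e-07). MT1G had 693, 729.8 and 795 and 365, 263 and 297 (-1.27 ± 0.15, adjusted p = 9.07e-07), and MT2A 505, 537 and 663 and 371, 262 and 266 (-0.93 ± 0.17, adjusted p = 0.000164). The groups of all 9 genes did not overlap, which also held for 62.8% of all genes tested. MT1F, MT1X and MT1A fell by 1.01, 0.77 and 0.83, and reads can be shared among these close paralogs. MTF1 and the zinc importer SLC39A10 were called higher, at 0.64 and 0.75, and both were under the fold limit with the GC trend removed, at 0.56 and 0.43, while the 6 falls held. The zinc exporter SLC30A1 was at 0.19.

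Several strongly retinoid-induced genes were lower with the inhibitors. The comparison of ATRA with untreated cells, in which 9.6% of the genes were called, 6.75% higher and 2.85% lower, shares the ATRA libraries with the comparison of the inhibitors, so levels are given side by side. Of 23 retinoid metabolism and receptor target genes 19 were tested, 1 was called higher and 6 lower, with a median of -0.17, and the counts were the same with the GC trend removed and beside Am80. CYP26B1, a hydroxylase that clears retinoic acid, had at most 1.11 normalized counts in untreated cells, 545, 619 and 552 with ATRA and 151, 119.6 and 143 with the inhibitors. Its relative CYP26A1 had no read in untreated cells, 114, 119.9 and 119 with ATRA and 53.7, 46.7 and 55.7 with the inhibitors (-1.16 ± 0.19, adjusted p = 5.94e-05). Both genes stayed far above the untreated level in all 3 libraries with the inhibitors, and below every ATRA library.

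STRA6, the receptor that takes retinol up, had 20.9, 11.1, 22.4 and 19.9 normalized counts in untreated cells, 88.7, 109 and 95.8 with ATRA and 24.4, 13.04 and 36.4 with the inhibitors (-2.05 ± 0.29, adjusted p = 8.22e-06). HIC1, a transcriptional repressor gene, had 15.7 to 26.6 in untreated cells, 2609, 2811 and 2979 with ATRA and 1263, 936 and 891 with the inhibitors (-1.46 ± 0.18, adjusted p = 2.18e-06). STRA6 with the inhibitors thus reached from within the untreated range to above it, and HIC1 stayed far over it. TGM2, transglutaminase 2, had 10522 to 11284 normalized counts with ATRA and 5474 to 6837 with the inhibitors. DHRS3, a reductase that lowers retinoic acid supply, had 2283 to 2394 and 1369 to 1757, a difference of -0.55 ± 0.15 that was under the fold limit.

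The receptors went separate ways. RARA had 1014, 961, 1045 and 819 normalized counts in untreated cells, 1219.6, 1404 and 1371 with ATRA and 2426, 2289 and 2424 with the inhibitors, a rise of 0.84 ± 0.10 (adjusted p = 1.14e-06). RARG had 103, 104, 129.5 and 129.6 in untreated cells, 219, 203 and 211 with ATRA and 114, 104 and 114 with the inhibitors, a fall to -0.92 ± 0.11 (adjusted p = 1.58e-06). The RARG libraries with the inhibitors lay within the untreated range. RARB had 3.69 to 7.76 in untreated cells, 142, 119 and 125 with ATRA and 112, 99.99 and 125 with the inhibitors, and its groups overlapped (95% interval -0.63 to 0.24). RXRA was at -0.14 (adjusted p = 0.138).

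Retinoid-induced genes as a set were taken from Am80 against untreated cells, which shares no library with the comparison of the inhibitors beside ATRA. Of all genes 964 were called higher with Am80 and 542 lower, 6.54% and 3.68%, or 10.2% for both directions. Of the 964 raised genes, 11.9% were called higher and 23.3% lower when the inhibitors were added to ATRA, with a median of -0.17. Of the 195 raised at least 4-fold, 8.72% were higher and 36.4% lower, with a median of -0.48. Of the 13231 genes not called with Am80 the shares were 7.7% and 9.71%. The 542 genes lowered by Am80 also had more falls than rises, 28.2% against 12.5%, with a median of -0.23. With the GC trend removed, the genes raised at least 4-fold held 11.1% higher and 29.6% lower (189 genes, median -0.38), the genes lowered by Am80 12.6% and 17.3% (491 genes, median -0.074), and the genes not called with Am80 5.23% and 6.17%.

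Genes outside retinoid metabolism were in the strongly induced set too. FGR, a SRC family kinase of myeloid cells, had 72.2 to 97.9 normalized counts in untreated cells, 2777, 2975 and 2769 with ATRA and 1428, 1339 and 1658 with the inhibitors (-0.95 ± 0.10, adjusted p = 1.94e-07). LILRA5, an activating immunoglobulin-like receptor, went the other way, from 63.6, 59.5 and 71.3 with ATRA to 154, 157 and 174 with the inhibitors (1.31 ± 0.21, adjusted p = 5.01e-05), against 1.11 to 3.69 in untreated cells. Neither gene had overlapping groups.

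The study names 5 stem cell genes for these same samples, so their falls are not independent evidence of a direction. The 4 that passed the filter were all called lower, also with the GC trend removed, and 3 of them beside Am80. RCOR2, a CoREST family corepressor that partners LSD1, had 47.4, 29.6, 34.9 and 28.8 normalized counts in untreated cells, 49.2, 42.3 and 55.5 with ATRA and 7.81, 4.35 and 9.09 with the inhibitors (-2.67 ± 0.29, adjusted p = 4.08e-07). NGFR, the p75 neurotrophin receptor, had 183, 162, 202 and 218 in untreated cells, 1251, 1387 and 1328 with ATRA and 376, 255 and 313 with the inhibitors (-2.08 ± 0.14, adjusted p = 4.78e-10). RCOR2 fell below the untreated range, and NGFR with the inhibitors stayed above it. HLA-G, a class I molecule of restricted expression, had 27.96, 13.8 and 24.5 with ATRA and 3.91, 6.52 and 3.41 with the inhibitors (-2.02 ± 0.52, adjusted p = 0.00312), and beside Am80 its difference was -1.27 (adjusted p = 0.0579). The fourth, POU2F2, a B cell transcription factor also called OCT2, had 127, 127, 122 and 78.7 in untreated cells, 228 to 250.2 with ATRA and 27.3 to 51.7 with the inhibitors. PRDM11, the fifth, had 18, 14 and 14 reads with ATRA and 6, 2 and 1 with the inhibitors, and KIT, the stem cell factor receptor, 1, 2 and 4 against 1, 1 and 0. Both were under the filter and were not tested.

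Of 26 other stem cell and progenitor genes tested, 1 was called higher and 4 lower, with a median of -0.25. These were 3.85% and 15.4%, against 8.16% and 11.3% of all genes tested. The counts were 0 and 1 with the GC trend removed, and 0 and 7 after scaling to total reads. MYB, a progenitor factor, had 5339, 4979.9 and 5402 normalized counts with ATRA and 3455, 3001 and 3362 with the inhibitors (-0.68 ± 0.073, adjusted p = 3.08e-07, -0.84 with the GC trend removed). HOXB4, TAL1 and ZFP36L2 fell by 0.72, 0.61 and 0.61, and all 3 were under the fold limit with the trend removed. HOXA9 and its partner MEIS1 were not called, at -0.12 and -0.26, nor was the kinase FLT3, at 0.10.

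The genes of both targeted enzymes were below the limit on the fold. KDM1A had 2303, 2193 and 2298 normalized counts with ATRA and 1993, 1927 and 1963 with the inhibitors (-0.21 ± 0.058, adjusted p = 0.00615), under the fold limit. KAT2A had 1466, 1527 and 1431 and 1265, 1115 and 1247 (-0.29 ± 0.082, adjusted p = 0.00666), and its difference was 0.024 with the GC trend removed. The inhibitors act on the proteins, so these levels do not check the labels. Of 16 LSD1-CoREST complex members and docking factors 3 were called higher and 2 lower, 2 and 2 with the GC trend removed, 1 and 3 after scaling to total reads, 1 and 2 after quantile normalization, and 1 and 2 beside Am80. SNAI1, a SNAG-domain repressor, went from 119.5, 118 and 135 to 463, 606 and 507 normalized counts (2.07 ± 0.13, adjusted p = 1.30e-10), and GFI1, the SNAG-domain repressor of myeloid cells, from 2897, 2925 and 3032 to 4514, 4310.4 and 4564 (0.60 ± 0.056, adjusted p = 5.87e-08). RCOR2 and ZMYM3 fell, and RCOR1, the main CoREST subunit in most cells, was at 0.39.

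Of 26 GCN5 and PCAF complex members 1 was called higher and 1 lower, SUPT20H of SAGA at 0.63 and KAT14 of ATAC at -0.69. The second call was kept with the GC trend removed, and SUPT20H was then at 0.36 without one. Of 43 other chromatin enzymes and coregulators 6 were called higher and 3 lower, 5 and 0 with the trend removed, and 3 and 3 after scaling to total reads. KDM6B, an H3K27 demethylase, had 555, 618 and 542 and 943, 1142 and 967 normalized counts (0.83 ± 0.13, adjusted p = 3.91e-05), and EZH1, an H3K27 methyltransferase, 536 to 577 and 893 to 1005 (0.75 ± 0.095). Their groups did not overlap. KDM7A rose by 0.99 and CREBBP by 0.63, while the falls of HDAC10 and HDAC11 at -0.87 and -0.66 were lost with the trend removed. Without replicate 2 of either group 1 of the 43 was lower.

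**Figure D4:**
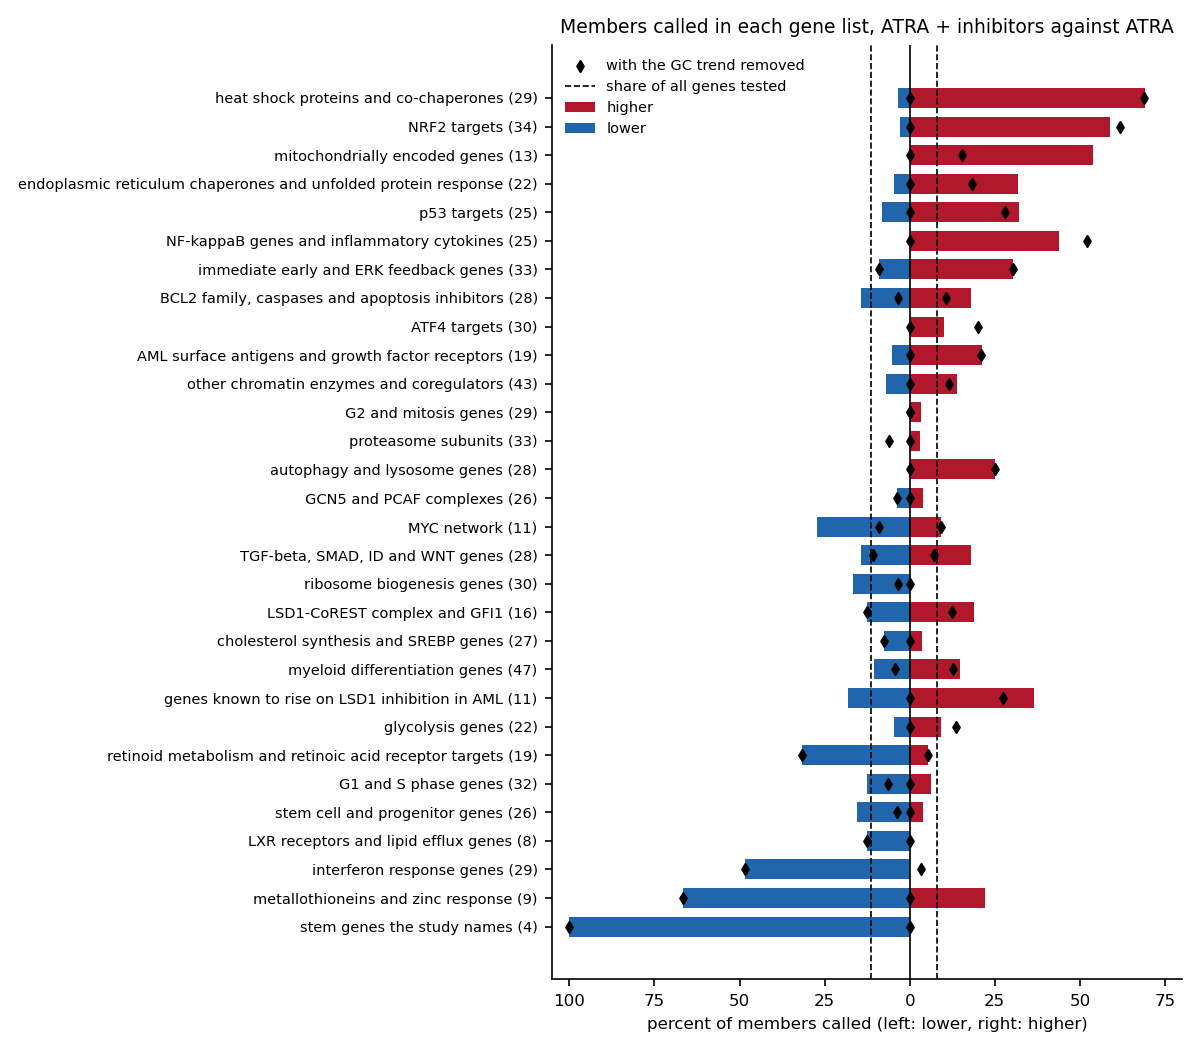
Percent of tested members called higher (red, to the right) or lower (blue, to the left) with the inhibitors beside ATRA, for 30 gene lists (vertical axis, members tested in brackets). Dashed lines are the 8.16% higher and 11.3% lower of all genes tested, and diamonds the shares with the GC trend removed. Heat shock, NRF2 and cytokine genes reach furthest to the right, apart from the mitochondrially encoded genes, whose diamond lies near 15.4%, and interferon genes, metallothioneins and the study's stem genes reach furthest to the left.

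Myeloid differentiation genes showed no common direction. Of 47 tested 7 were called higher and 5 lower, 14.9% and 10.6%, with a median of -0.12 that was above 0, at 0.05, with the GC trend removed. Scaling to total reads gave 4 and 9, and the GC trend removed 6 and 2. FPR1, a chemotactic receptor of phagocytes, went from 19.3, 21.6 and 21.6 to 60.5, 41.3 and 47.7 normalized counts (1.21 ± 0.19, adjusted p = 3.27e-05). CD86, a costimulatory molecule often read as a response to LSD1 inhibitors, went from 496, 495 and 522 to 933, 919 and 1003 (0.91 ± 0.084, adjusted p = 4.70e-08). LYZ, lysozyme, had 6703 to 7147 with ATRA and 11078 to 11913 with the inhibitors (0.70). In untreated cells LYZ had 10420 to 12446, so its libraries with the inhibitors lay within the untreated range. Against these, CSF1R, the M-CSF receptor, fell from 333, 384 and 388 to 211, 186 and 229.6 (-0.82 ± 0.10). CEBPA, a master factor of granulocytes with a GC-rich transcript, had 6635, 6929 and 7621 and 4589, 3797 and 3715 normalized counts (-0.81 ± 0.14, adjusted p = 0.000121), and with the GC trend removed its difference was -0.32, under the limit on the fold. ITGAM, which encodes CD11b, had 76.2, 69.9 and 70.6 with ATRA and 101, 105 and 97.8 with the inhibitors, without overlap, and its difference of 0.48 ± 0.16 (adjusted p = 0.0178) was under the fold limit. The alarmins S100A8 and S100A9 were at -0.41 and -0.35 and were not called.

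Of 11 genes known from other work to rise on LSD1 inhibition in AML, 4 were called higher and 2 lower, 3 and 0 with the GC trend removed, 1 and 3 after scaling to total reads, and 1 and 2 beside Am80. Without combination replicate 3, 2 were higher. The rises were CD86, LYZ, GFI1 and VCAN, and the falls CSF1R and CEBPA. The rise of LYZ was back to its untreated range. Of 19 surface antigens and growth factor receptors 4 rose, IL1RAP at 1.004, TNFRSF1A at 0.73, CLEC12A at 0.67 and CLEC7A at 1.53, and CSF1R was called lower. The counts of 4 and 1 were 4 and 0 with the GC trend removed, where CSF1R was at -0.58 without a call. CLEC7A was low, at 10.6, 0.863 and 9.36 normalized counts with ATRA and 16.6, 23.9 and 11.4 with the inhibitors (adjusted p = 0.0137), and lost its call without the second library of either group. Without ATRA replicate 2, 2 of the 19 were higher. CD99, IL3RA and CSF2RA, which lie in the region shared by both sex chromosomes, were listed at 0, and no level is read from that.

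Death and growth genes also split. Of 25 p53 targets 8 were called higher and 2 lower, with a median of 0.40, and 7 and 0 with the GC trend removed. PMAIP1, the BH3-only protein NOXA, went from 395, 324 and 402 to 1046, 1306 and 963 normalized counts (1.56 ± 0.12, adjusted p = 3.53e-09). FAS, a death receptor, went from 336, 298 and 344 to 822, 975 and 852 (1.43 ± 0.10, adjusted p = 5.45e-10), and MDM2, the ligase that degrades p53, rose by 0.93. CDKN1A, the p21 inhibitor of cell cycle kinases and a defining p53 target, was lower in every library with the inhibitors, at 1642 to 1706 against 1859 to 2073, and was not called (-0.24).

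The BH3-only genes moved in opposite directions. BCL2L11, which encodes BIM, rose from 1599, 1679.5 and 1673 to 3222, 4415 and 3630.4 normalized counts (1.17 ± 0.095, adjusted p = 7.95e-09). BMF had 178, 230, 171 and 182 in untreated cells, 625, 609 and 619 with ATRA and 195, 148 and 206 with the inhibitors, a fall to -1.76 ± 0.12 (adjusted p = 7.83e-10) that put 2 of the 3 libraries within the untreated range. In the whole list of 28 BCL2 family, caspase and inhibitor genes 5 were higher and 4 lower, 3 and 1 with the GC trend removed. The survival genes MCL1 and BCL2A1 rose by 0.61 and 1.19, and BCL2 was at -0.12.

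MYC, a transcription factor of growth that ATRA alone lowered, had 6563, 5825, 6667 and 6264 normalized counts in untreated cells, 3425, 3489 and 3535 with ATRA and 2215, 1868 and 2268 with the inhibitors, a further fall to -0.72 ± 0.075 (adjusted p = 2.19e-07). With the GC trend removed the difference was -0.58, just under the fold limit. MXD1, which competes with MYC for MAX, rose from 386, 355 and 369 to 1196, 1623 and 1364 (1.90 ± 0.10, adjusted p = 2.00e-11). MNT and MXD3 of the same MYC network list were called lower, at -1.03 and -0.93. Of 11 members tested 1 was called higher and 3 lower, and 1 and 1 with the GC trend removed. Of 30 ribosome biogenesis genes, many of them MYC targets, 0 rose and 5 fell, and with the trend removed 1 did, RRS1, at -0.61. Of 32 G1 and S phase genes 2 rose and 4 fell, 0 and 2 with the trend removed and 1 and 8 after scaling to total reads. CCND1, cyclin D1, fell from 1619, 1615 and 1588 to 961, 834 and 867 (-0.86 ± 0.07, adjusted p = 8.99e-09), and the kinase inhibitor CDKN2D fell by 1.18. Of 29 G2 and mitosis genes 1 was called, NUSAP1 at 0.71 (adjusted p = 0.0342), which was not called with the trend removed, and MKI67 was at 0.11.

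Metabolic genes were called in small numbers. HK2, the inducible hexokinase, stood out of the 22 glycolysis genes at 1969.6, 1816 and 1856 normalized counts with ATRA and 6734, 7471 and 6436 with the inhibitors (1.87 ± 0.066, adjusted p = 3.64e-14), and the glucose transporter SLC2A3 rose by 0.98. HK3, a myeloid hexokinase, was called lower at -0.66, and was at -0.30 without a call once the GC trend was removed. The glycolysis counts of 2 higher and 1 lower were 3 and 0 with the trend removed and 2 and 4 after scaling to total reads. Of 27 cholesterol synthesis genes 1 rose, HSD17B7, and 2 fell, MVK and CYP51A1, at 0.68, -1.09 and -0.60. The counts were 0 and 2 with the GC trend removed, where HSD17B7 was at 0.45 without a call, and 0 and 5 after scaling to total reads. Of 8 LXR and lipid efflux genes APOC1 was called, at -0.94, also with the GC trend removed, and 2 were lower after scaling to total reads.

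Of the 13 mitochondrially encoded protein genes 7 were called higher and 0 lower, with a median of 0.59, beside the higher share of mitochondrial reads. The call did not hold across settings: 2 were higher with the GC trend removed, 2 after scaling to total reads, 1 after quantile normalization, and none beside Am80. Without combination replicate 3, 2 were called, and without ATRA replicate 2, 4. The median was 0.0052 after quantile normalization. MT-CO1 had 160368, 168875 and 180815 normalized counts with ATRA and 237310, 248329 and 306580 with the inhibitors (0.63 ± 0.11, adjusted p = 0.000148), and the third library with the inhibitors was the highest. MT-TS2, a mitochondrial serine tRNA gene, went the other way, from 304, 192 and 295 to 65.4, 57.6 and 47.7 (-2.17 ± 0.30, adjusted p = 6.40e-06). It had 49.8 to 159 normalized counts in untreated cells. The summed level of the mitochondrial tRNA genes overlapped, at 4436 to 6063 with ATRA and 4820 to 5784 with the inhibitors.

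Of 28 TGF-beta, SMAD, ID and WNT genes 5 rose and 4 fell, 2 and 3 with the GC trend removed and 1 and 7 after scaling to total reads, and 3 rose without replicate 2 of either group. ID3, an inhibitor of DNA binding that ATRA alone lowered, had 64.1, 70.2, 49.8 and 78.7 normalized counts in untreated cells, 15.4, 6.90 and 19.4 with ATRA and 52.7, 54.3 and 54.6 with the inhibitors (1.99 ± 0.26, adjusted p = 4.27e-06). WNT10B, a WNT ligand, had 229 to 251 with ATRA and 46.7 to 77.1 with the inhibitors. FZD2, a WNT receptor, had 53.5 to 61.2 and 26.4 to 27.3, and SMAD6, an inhibitory SMAD, 362 to 377 and 159 to 212. The log2 differences of these 3 falls were -2.02, -1.09 and -0.98.

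Among the 12 largest rises several genes fell outside the lists. SLC1A3, a glutamate and aspartate transporter, had 411, 465, 427 and 409 normalized counts in untreated cells, 109, 112 and 107 with ATRA and 779, 835 and 774 with the inhibitors (2.85 ± 0.10, adjusted p = 3.64e-14). ATRA alone thus lowered it, and with the inhibitors it was above the untreated range. MBNL2, a splicing regulator, had 127, 99.2 and 133 and 721, 784 and 732 (2.64 ± 0.13, adjusted p = 4.49e-12). S1PR3, a sphingosine 1-phosphate receptor, had 527, 612 and 585 and 2665, 3921 and 3161 (2.48 ± 0.10, adjusted p = 5.04e-13), while SPHK1, the kinase that makes that lipid, was among the 12 largest falls at 56.9, 56.1 and 48.98 and 7.81, 6.52 and 12.5 (-2.51 ± 0.24, adjusted p = 8.44e-08). PRLR, the prolactin receptor, rose by 2.66 on the log2 scale, and SERPINB2, the plasminogen activator inhibitor of monocytes, by 2.38. SCML1, a polycomb-related gene, had 13.8 to 33.1 with ATRA and 101 to 157 with the inhibitors, and CYTIP, which binds cytohesins in leukocytes, 6.48 to 14.7 and 42.96 to 81.5. LUCAT1, a long noncoding RNA, had 9.64, 13.8 and 12.96 with ATRA and 97.6, 157 and 118 with the inhibitors.

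Among the 12 largest falls, PAQR7, a membrane progestin receptor, had 115, 96.6 and 92.2 normalized counts with ATRA and 22.5, 22.8 and 11.4 with the inhibitors (-2.42 ± 0.22, adjusted p = 4.84e-08). ADAM19, a membrane protease that ATRA alone raised, had 21.1 to 24.9 in untreated cells, 56.9, 73.3 and 67.7 with ATRA and 23.4, 11.96 and 11.4 with the inhibitors (-2.08 ± 0.23, adjusted p = 4.36e-07). The ADAM19 libraries with the inhibitors lay within or below the untreated range. KLHL30 and TMEM160 fell by 2.12 and 2.15, with transcripts of 62.00% and 72.2% GC, and by 1.75 and 1.46 with the GC trend removed. SNHG25, a snoRNA host gene, spread widely with ATRA alone, at 383, 149 and 295, and had 71.3, 57.6 and 35.2 with the inhibitors.

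The called genes also differed in structure, level and gene type. The median gene span was 34984 bases for genes called higher and 12143 for those called lower, against 26567 over all genes tested, on GENCODE v29 models. The median number of exon blocks was 9, 6 and 9. The median of the mean normalized counts was 448.9, 104 and 355.8 in the same order. Long intergenic RNA genes were 3.32% of the genes called higher and 6.05% of those called lower, and antisense genes 4.01% and 7.92%. Of 449 processed pseudogenes 84 were called higher and 28 lower, and 13 of the 84 had a parent symbol that was called higher too. Processed pseudogenes made up 6.48% of the genes called higher and 1.19% of those called lower. Short read counts of such copies can hold reads of the parent gene.

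The same addition beside Am80 used other libraries. It called 1014 genes higher and 1302 lower, 6.88% and 8.83%, and 15.7% for both directions. Of the genes called higher beside ATRA 722 were called higher beside Am80, which is 60.1% of the former and 71.2% of the latter. For the genes called lower the number was 884, or 53.2% and 67.9%. No gene was called in opposite directions, and 2800 of the 2865 genes had the same sign of the fitted value beside Am80.

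HMOX1 had 209.8, 142 and 179 normalized counts with Am80 and 9662, 8919 and 7763 with the inhibitors added. CXCL8 had 3093, 2908 and 2463 and 18457, 16676 and 13070, and MT1E 843, 670 and 840.4 and 278, 279 and 233. The log2 differences were 5.64, 2.50 and -1.57, against 4.94, 2.69 and -1.59 beside ATRA. In the Am80 comparison the GC slopes were 0.0795, -0.129 and 0.134 with Am80 and -0.0295, -0.0716 and -0.0917 with the inhibitors, so that the groups overlapped through Am80 replicate 2.

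The difference of both responses was tested as an interaction of retinoid and inhibitors. In the limma fit 2208 of the 14737 genes tested had an unadjusted p under 0.05, and the smallest adjusted p was 0.226. The 2208 exceed the share of 0.05 that would fall there if no gene differed. A lack of calls therefore does not show equal responses. The 2208 became 857 with the GC trend removed, 1232 without Am80 replicate 2 and 2973 without untreated replicate 4. No gene was called by limma or by edgeR, and 5 were called by DESeq2. Those were STAG3L5P, DDIT4, MIR142HG, ENGASE and LPAR2, all higher beside Am80, with DESeq2 differences of 0.74, 0.84, 0.79, 0.64 and 0.65 between both responses. DDIT4, an inhibitor of mTORC1 that ATF4 drives, had 1029, 1003 and 1036 normalized counts with ATRA and 1154, 1349 and 991 with the inhibitors, and 1016, 831 and 1041 with Am80 and 2381, 1812 and 1669 with the inhibitors. LPAR2, a lysophosphatidic acid receptor, had 555, 542 and 534 and 555, 509.7 and 539.9 beside ATRA, and its difference was -0.024 there and 0.63 beside Am80. RGS18, a regulator of G protein signalling in blood cells, rose by 0.79 beside ATRA, and its difference was 0.24 beside Am80 (interaction, unadjusted p = 0.000141). Since no adjusted p from limma passed, these differences between the retinoids are not called here.

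**Figure D5:**
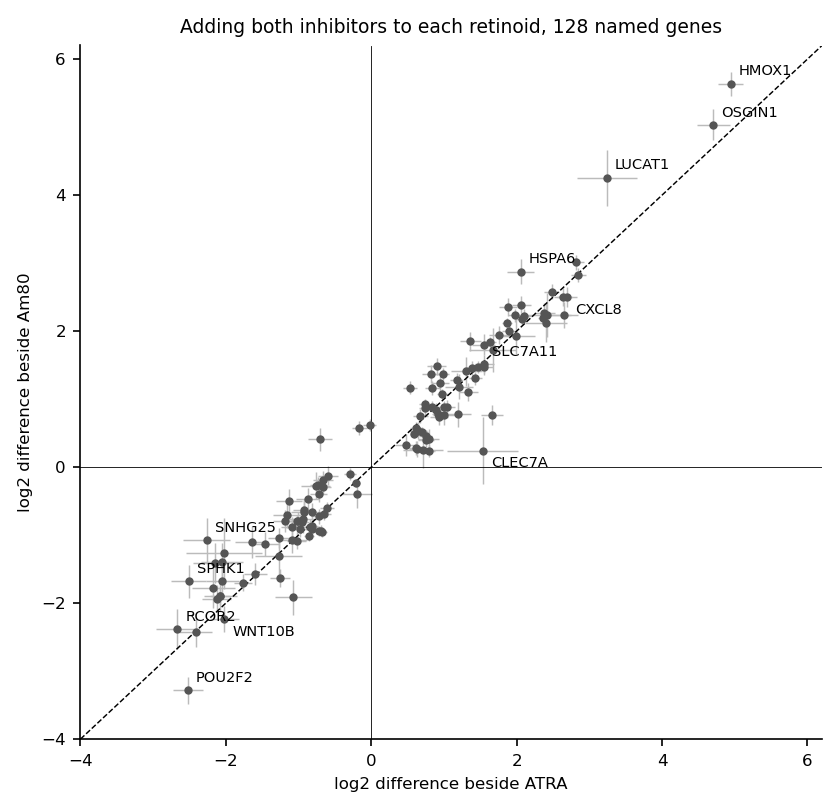
Log2 difference on adding both inhibitors to Am80 (vertical axis) against the log2 difference on adding them to ATRA (horizontal axis) for the 128 named genes, with horizontal and vertical bars of ± 1 standard error of the fit. The dashed line marks equal differences. HMOX1 lies at 4.94 and 5.64 and POU2F2 at -2.52 and -3.28, and CLEC7A, at 1.53 and 0.24, has wide errors.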

How the data were processed

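RNA of OCI-AML3 cells was sequenced in 16 libraries of 5 groups. The authors deposited 1 table in which each gene's read count in a library was divided by a DESeq2 size factor, so its values are normalized counts, a signal that is not whole. Submitters' notes name FastQC, cutadapt, STAR, featureCounts and DESeq2, and versions, genome build, annotation, strand setting and the handling of reads with several matches are not given in the sources used here. The paper and the labels name different RNA and library kits, and which applies is not known. Doses and the 3 h time are those of the study's methods. Replicate independence is not stated.

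Groups were taken from the labels and columns matched by name. Genes that averaged 10 normalized counts or more over the 6 libraries compared were tested as log2(value + 1) with limma 3.58.1 (with a mean-variance trend) under R 4.3.3, in a fit of all groups without a replicate block. A call needed a Benjamini-Hochberg adjusted p under 0.05 and a fold of at least 1.5. Every value was a whole multiple of what 1 read is worth (100% within 1e-06), so reads were recovered and tested with edgeR 4.0.16, which called 1075 genes higher and 1909 lower, and DESeq2 1.42.0, which called 1157 and 1626. The range of total reads, given with the results, sets the counting precision of low genes, and 3 reads were worth 2.16 to 3.41 normalized counts in the 6 libraries. The other alternatives changed the pseudocount, the filter, the scaling, the thresholds or the samples, thinned the reads, added the replicate number as a block, or removed a GC trend per library. The GC trend was added after the data had been seen.

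The named genes were fixed by rule: the 12 largest called rises and 12 largest called falls with non-overlapping groups, an average of 50 or more in the group with the higher level and a gene symbol, up to 4 called members of each list by size, the 5 genes of smallest p in the interaction, and KDM1A, KAT2A, RARA, RARB, CYP26A1, CYP26B1, ITGAM, KIT, POU2F2, RCOR2, PRDM11, HLA-G, NGFR and MYC. Other list members named in the text were chosen after their values were seen. The members and lists were chosen with earlier results of these data known. Gene models and GC content came from GENCODE v29, which lacked 4493 of the IDs, and promoter windows from RefSeq on GRCh38.p14, with 35116 windows. The windows run from 250 bases before the start to 50 after it. The fit was tested on simulated data. A few genes are not reported here. Figures were drawn with matplotlib 3.10.9.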

Additional observations from a re-analysis of the deposited data

Results flagged for a closer look

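Gaps in the untreated group were checked for KDM1A, KAT2A, RARA, RARB, CYP26A1, CYP26B1, ITGAM, HLA-G, NGFR, MYC, POU2F2 and RCOR2 only. Of these, 2 had 1 untreated library that stood apart from the other 3 in the group of 4. CYP26B1, the retinoic acid hydroxylase, had 1.11 normalized counts in untreated replicate 4 and none in the others. That value is 1 read, and any read passes the limit when the other libraries hold none. POU2F2, the OCT2 gene, had 78.7 normalized counts in untreated replicate 4 against 122 to 127 in the others. Other named genes were not checked. Among them, MT1E had 1405 in untreated replicate 4 against 784 to 857 in the others, and MDM2 2472 against 3863 to 4058. The limit used for such gaps is a 95% limit, so chance is taken to pass it in about 1 of 20 groups. Untreated cells entered neither side of the comparison of the inhibitors beside ATRA.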

How the results depend on the processing

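The 1202 genes called higher became 681 after scaling to total reads, 830 with the GC trend removed, 3654 with no limit on the fold, and 303 at an adjusted p under 0.01 with a fold of at least 2. The 1663 called lower became 2544 after scaling to total reads, 1054 with the GC trend removed, 1091 among genes with a mean of at least 50, 3567 with no limit on the fold, and 447 at the stricter thresholds. Leaving out 1 library gave 1029 to 1232 higher and 1443 to 1757 lower, and 0 to 0 genes for the interaction of retinoid and inhibitors, where DESeq2 called 5. The share of rises among the calls was 48.1% after quantile normalization, 36% by edgeR and 44.1% with the GC trend removed, against 42.0%. Reversed values were found for 2 named genes that are not called: LPAR2, at 0.38 with the GC trend removed and 0.0097 without combination replicate 2 (-0.051 without combination replicate 1, its lowest with 1 library left out), and KAT2A, at 0.024 with the GC trend removed. Of the 128 named genes 121 were called, 92 of them under every alternative with the same thresholds that tested them. The other 29 lost the call in at least 1, of which 25 lost it with the GC trend removed. The fit of genes with a mean of at least 50 held 114 of the 128. No called named gene changed direction. The medians of 11 of the 32 lists changed sign in some setting. The cause was not tested.

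Replicate numbers are given in the labels, but same-numbered libraries did not deviate together: the correlations of their deviations from the group means were -0.0121, -0.0206 and 0.0035. With the replicate number as a block, 1229 genes were called higher and 1696 lower, and 0 for the interaction.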
